A study of Homo sapiens with 8 samples.

Results

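The AP-1 family genes described here are FOS, FOSB, FOSL1, FOSL2, JUN, JUNB, JUND, ATF2, ATF3 and ATF7, 10 of the 20033 protein-coding genes of the RefSeq table (GRCh38.p14, the assembly that hg38 names). They were taken by name, and every listed peak of Flag-tagged ARID1A from 10 kb before to 10 kb after each gene was collected. The cells came from Huh7, a line from a human hepatocellular carcinoma, after knockout of ARID1A, and they stably expressed a Flag-tagged ARID1A from a lentivirus. ARID1A is the DNA-binding subunit of the BAF form of the SWI/SNF complex, which moves nucleosomes. All groups therefore shared the knockout and an exogenous, tagged protein. The 3 groups, of 2 ChIP-seq libraries each, expressed wild-type ARID1A (WT), the C-terminal missense mutant V2084D, or V2084D together with knockdown of STUB1, which encodes a chaperone-bound ubiquitin ligase. The peak names of the WT and V2084D lists carry the code shEV, which the labels do not explain. The labels do not state whether replicate libraries came from separate cultures, nor how many knockout clones were used, so p-values reflect only the spread between libraries, which may be technical.

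AP-1 is a dimer of basic leucine zipper proteins. JUN proteins pair with FOS or ATF proteins and bind short palindromic elements, the TPA response element or the cAMP response element, while FOS proteins need a JUN partner to bind DNA. FOS, FOSB, JUN, JUNB and ATF3 are immediate-early or stress-induced genes, whereas JUND, ATF2 and ATF7 are expressed more constantly, and JUN is needed for liver regeneration. AP-1 is also known to recruit SWI/SNF to enhancers.

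Wild-type ARID1A was listed near every one of the 10 genes, and within 1 kb of the start of FOS, FOSB, JUN and JUND a peak was listed in all 6 libraries. FOSL2 had one there in every list but replicate 2 of the STUB1 knockdown. The high-coordinate ends of ATF2 and ATF7 had one in both WT lists and in V2084D replicate 2 alone. JUNB and FOSL1 had peaks at their ends in the WT lists only. ATF3 had none over the 2 starts of its matched RefSeq entries in any list, and its summits lay at least 1754 bp from them.

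The promoter sequences of 7 members are printed, ordered by the listed peaks at their starts. The first 5 belong to the genes whose starts kept a peak in at least 1 list of every group. Those of JUNB, with a peak in WT lists alone, and of the upstream ATF3 start, with none, follow. Whether the sequence bears on a listed peak was not tested. ATF7, whose start had no peak in the knockdown lists, is not printed. Each runs from 250 bases before to 50 bases after the RefSeq start (GRCh38.p14), 5′ to 3′ along the gene. Capitals mark the letters TGANTCA, TGANNTCA or TGACGT, searched on both strands, which hold the core of the TPA and cAMP response elements.
FOS, chr14:75278578-75278877, plus strand: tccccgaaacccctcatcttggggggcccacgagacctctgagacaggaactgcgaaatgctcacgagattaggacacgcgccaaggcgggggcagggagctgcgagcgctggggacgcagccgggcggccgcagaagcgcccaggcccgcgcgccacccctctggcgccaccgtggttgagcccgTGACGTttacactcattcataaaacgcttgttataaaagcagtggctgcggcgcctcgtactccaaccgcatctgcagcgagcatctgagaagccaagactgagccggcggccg
FOSB, chr19:45467746-45468045, plus strand: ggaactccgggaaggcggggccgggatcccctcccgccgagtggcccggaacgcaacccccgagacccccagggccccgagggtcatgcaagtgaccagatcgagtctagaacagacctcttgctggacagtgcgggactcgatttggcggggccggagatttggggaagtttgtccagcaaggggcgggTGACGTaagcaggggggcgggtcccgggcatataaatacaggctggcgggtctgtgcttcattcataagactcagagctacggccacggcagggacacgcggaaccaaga
FOSL2, chr2:28392608-28392907, plus strand: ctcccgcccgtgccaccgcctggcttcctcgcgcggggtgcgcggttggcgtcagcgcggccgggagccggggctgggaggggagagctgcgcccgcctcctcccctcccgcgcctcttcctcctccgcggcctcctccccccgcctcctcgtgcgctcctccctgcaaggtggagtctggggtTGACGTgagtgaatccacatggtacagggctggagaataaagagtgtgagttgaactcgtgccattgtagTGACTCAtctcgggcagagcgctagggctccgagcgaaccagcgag
JUN, chr1:58783998-58784297, minus strand: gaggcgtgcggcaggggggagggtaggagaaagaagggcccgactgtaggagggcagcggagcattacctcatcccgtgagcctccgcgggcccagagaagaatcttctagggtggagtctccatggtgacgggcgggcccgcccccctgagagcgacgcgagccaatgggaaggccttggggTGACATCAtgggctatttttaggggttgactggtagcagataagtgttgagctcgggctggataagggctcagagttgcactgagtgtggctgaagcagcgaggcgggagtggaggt
JUND, chr19:18281573-18281872, minus strand: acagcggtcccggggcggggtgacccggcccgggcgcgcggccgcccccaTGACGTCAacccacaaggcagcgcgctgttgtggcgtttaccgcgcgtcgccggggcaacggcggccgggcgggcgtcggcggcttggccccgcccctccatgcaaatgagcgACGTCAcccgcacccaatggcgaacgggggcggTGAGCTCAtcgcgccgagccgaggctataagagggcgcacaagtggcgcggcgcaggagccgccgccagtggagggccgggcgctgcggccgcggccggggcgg
JUNB, chr19:12791236-12791535, plus strand: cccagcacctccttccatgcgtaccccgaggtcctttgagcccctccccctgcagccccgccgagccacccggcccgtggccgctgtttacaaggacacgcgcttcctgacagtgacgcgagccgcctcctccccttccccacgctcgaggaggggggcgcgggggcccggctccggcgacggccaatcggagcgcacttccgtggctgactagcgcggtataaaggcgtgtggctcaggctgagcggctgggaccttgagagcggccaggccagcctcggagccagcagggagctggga
ATF3, chr1:212565157-212565456, plus strand: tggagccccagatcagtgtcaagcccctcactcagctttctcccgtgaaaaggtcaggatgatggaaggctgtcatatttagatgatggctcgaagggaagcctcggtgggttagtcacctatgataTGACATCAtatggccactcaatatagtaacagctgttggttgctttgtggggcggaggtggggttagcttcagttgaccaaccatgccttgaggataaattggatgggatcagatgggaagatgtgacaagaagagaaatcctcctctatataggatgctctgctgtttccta
RefSeq promoter entries were matched for 8 of the 10 members, FOSL1 and ATF2 being those without one.

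In 4 of these 8 genes, FOS, FOSB, FOSL2 and JUND, the window held TGACGT, which 7.97% of the 34796 distinct RefSeq promoters of this length hold. Counted from the start, with -1 as the base before it, the element ran from -64 to -59 in FOS, from -60 to -55 in FOSB and from -66 to -61 in FOSL2. JUN held TGACATCA from -67 to -60, a match to TGANNTCA, which 11.5% of all promoters hold. JUND held TGACGTCA from -200 to -193, in which TGACGT and TGANNTCA overlap, the reverse form ACGTCA from -87 to -82, and TGAGCTCA from -54 to -47. The FOSL2 window also held TGACTCA from 5 to 11, and 7.73% of all promoters hold TGANTCA. The JUNB window and the 3 ATF7 entries matched none of the 3 patterns. The upstream ATF3 window held TGACATCA from -123 to -116, and no listed peak overlapped it. A match describes the letters and not a bound site.

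The 2 matched promoter windows of ATF3 also held less G and C and fewer CpG dinucleotides than those of the other matched members. The entries of FOS, FOSB, FOSL2, JUN, JUNB, JUND and ATF7 had between 62% and 77% G and C and between 16 and 49 CpG dinucleotides. The median of all promoters was 58.7% and 14. The 2 ATF3 entries had 48% and 46.3% G and C, and 4 and 1 CpG. Any other ATF3 start was not measured, and whether base content goes with a listed peak was not tested.

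The WT lists had 27587 and 26515 peaks, the V2084D lists 6000 and 12384, and the knockdown lists 8904 and 6663. The read depth of these libraries is unknown. Fold enrichment and −log10 q are the authors' values within 1 list and were not compared between lists. A rank by −log10 q is given as a percent of the list, so that a low percent is a strong peak. The lists differ in length, so such percents describe a peak within its own list and are not on 1 scale between lists. Lists of ARID1A peaks do not measure expression, so the labelled cell type could not be checked. Of 8 hepatocyte markers, 1, APOA1, had a peak within 10 kb in both WT lists, against 66.7% of all genes, and 0 had one in all 6 lists, against 16.4%. APOA1, with a peak in 5 lists, and ALB, AFP, SERPINA1 and APOB, with none in any list, were picked out after their values were seen.

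The FOS gene encodes the founding partner of JUN. Its only site, at chr14:75277188-75279595, lay over or next to the start in every list. The peak of knockdown replicate 1 ended 2 bp before the gene, and the other 5 covered its first base. The fold enrichments were 5.76 and 4.28 in the WT lists, 3.02 and 3.87 in the V2084D lists, and 4.40 and 4.64 in the knockdown lists. Within their lists these peaks ranked at 7.78% and 24.8% in the WT lists, at 82.7% and 28.5% in the V2084D lists, and at 9.73% and 16.7% in the knockdown lists. The V2084D replicate 1 peak was thus near the bottom of its list, and that of knockdown replicate 1 was near the top of its own. By place in the list, the ranks were 2146 and 6579 in WT and 4961 and 3532 in V2084D. With knockdown they were 866 and 1112. Summits lay 139 and 263 bp before the start in the WT lists, 225 and 496 bp before it in the V2084D lists, and 185 and 60 bp before it in the knockdown lists, all of them upstream of the first base of the gene. WT replicate 2 listed a further weak peak 1386 bp upstream.

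FOSB, the FOS paralogue known from the response of neurons to repeated stimulation, had the same kind of peak over its start. The fold enrichments there were 7.78 and 7.09 in the WT lists, 4.51 and 5.77 in the V2084D lists, and 5.54 and 5.57 in the knockdown lists. A second peak inside the gene had its summit 1593 bp downstream of the start in WT replicate 2, 1236 bp in V2084D replicate 2, and 1635 and 1204 bp with knockdown. In WT replicate 1 the peak over the start reached this point, with its summit at 1577 bp, while V2084D replicate 1 listed none there. A further site, chr19:45478609-45479278, lay 3527 to 3778 bp past the high-coordinate end, at TRU-TCA1-1, a selenocysteine tRNA gene (chr19:45478601-45478687). It was listed in 5 of 6 lists, without knockdown replicate 1. The peaks of both WT lists and of knockdown replicate 2 overlapped the tRNA gene, and those of V2084D began 122 and 150 bp beyond it.

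FOSL2, a FOS relative without the strong transactivation domain of FOS, had the strongest WT peaks at any member's own start. The fold enrichments of the strongest peak at the start were 9.97 and 10.4 in the WT lists, 5.37 and 6.10 in the V2084D lists, and 4.57 in knockdown replicate 1. The WT peaks ranked at 2.83% and 1.81% of their lists, the V2084D peaks at 30.8% and 9.19%, and the knockdown peak at 61.4%. Knockdown replicate 2 had no peak anywhere in the 44.5 kb window. The summits of these peaks lay between 180 and 273 bp upstream of the start, and those of the mutant lists did not reach the first base of the gene. WT replicate 1 and knockdown replicate 1 also listed a peak with its summit 2268 and 2299 bp upstream. In WT replicate 2 the 2891 bp peak at the start took in this place too. In the knockdown list this upstream peak was the stronger of the pair, with a fold of 5.54 and a rank at 28.8% of the list. The lncRNA gene FOSL2-AS1 (chr2:28384409-28394672) overlaps both places.

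FOSL1, whose product FRA-1 is linked to invasive carcinoma cells, had no mutant peak at the gene itself. Its high-coordinate end had a peak in both WT lists, at chr11:65900075-65900658, with folds of 2.52 and 3.32. These were among the weakest entries of their lists, at 99% and 80.9%. Stronger WT peaks in the window lay at the neighbouring genes FIBP, with folds of 6.29 and 4.12, and CCDC85B, with 3.44 and 3.66. Of the further WT peaks at the gene, found in 1 list each, the strongest was in WT replicate 1, 1205 bp inside the low-coordinate end, with a fold of 5.37. Neither V2084D list had any peak in the window. The single knockdown peak, in replicate 1, lay within FIBP, with its summit 954 bp from an end of CTSW.

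JUN encodes the partner that most AP-1 dimers share. A peak covered its start in all 6 lists, within a site at chr1:58781582-58784710 that spans most of the gene. The fold enrichments over the start were 5.76 and 6.17 in the WT lists, 4.67 and 5.11 in the V2084D lists, and 3.82 and 5.52 in the knockdown lists. Their ranks were 14.5% and 8.15% in the WT lists, 30.3% and 5.59% in the V2084D lists, and 56.3% and 8.01% in the knockdown lists. Each group had a list in which this peak was among the strongest 10% and another in which it was not. By place in the list, the ranks were 4002 and 2161 in WT and 1820 and 692 in V2084D. With knockdown they were 5010 and 534. A separate peak within the gene had its summit 2138 bp downstream of the start in WT replicate 2, 1356 and 1687 bp in V2084D, and 1163 bp in knockdown replicate 1. In WT replicate 1 the 3129 bp peak took in both positions, with its summit 2369 bp downstream. The lncRNA gene JUN-DT begins at 58785151, beyond every one of these peaks.

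JUND, the JUN family member that restrains growth in many cells, was held in all 6 lists at chr19:18279517-18282774. The WT peaks had folds of 8.30 and 8.49 and were 3258 and 2562 bp wide, each covering most or all of the gene and its upstream flank. In V2084D replicate 1 the place held separate peaks with summits 265 bp downstream and 472 bp upstream of the start, with folds of 4.25 and 6.22, the latter at 8.20% of its list. V2084D replicate 2 had a single peak of 1142 bp with a fold of 6.19, its summit 108 bp downstream. Knockdown replicate 1 again listed separate peaks, 135 bp downstream and 244 bp upstream, with 5.21 and 3.10. Knockdown replicate 2 listed only an upstream peak, with its summit 625 bp from the start and a fold of 4.04. It did not overlap the printed promoter window, which peaks of the other 5 lists did. The annotation places the microRNA gene MIR3188 (chr19:18282077-18282161) and a lncRNA gene in this flank.

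JUNB had the most WT peaks of any member, and in the mutant lists peaks lay only away from the gene. JUNB often opposes JUN at shared targets and is itself an immediate-early gene. The 21.8 kb window held 9 and 8 WT peaks, 1 and 3 from V2084D and, under knockdown, 2 and 1. Over the start, WT replicate 1 had a peak of 1839 bp with a fold of 4.64, whose summit lay 931 bp downstream of the start. WT replicate 2 had a peak of 411 bp there with a fold of 4.08 and its summit 220 bp downstream. A second peak of WT replicate 2, with a fold of 4.70, had its summit 941 bp downstream of the start. No mutant list had a peak within 1 kb of either JUNB end. V2084D replicate 2 and knockdown replicate 1 listed a peak 1294 and 1262 bp upstream of the start, with folds of 4.10 and 3.52. The same 2 lists had a peak 236 and 260 bp from the low-coordinate end of PRDX2, a peroxiredoxin gene. V2084D replicate 2 and knockdown replicate 2 had one at the facing ends of PRDX2 and THSD8. The summit lay between these genes in V2084D replicate 2 and 18 bp inside THSD8 in knockdown replicate 2. V2084D replicate 1 listed only a peak 8551 bp upstream, so the 2 V2084D lists shared no site in this window. The gene HOOK2 overlaps JUNB in the annotation, and its high-coordinate end at 12792350 lies within the WT peaks.

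ATF2 and ATF7 encode close paralogues that bind cAMP response elements and dimerize with JUN after phosphorylation by stress kinases. At ATF2 the peak lay at the high-coordinate end, chr2:175167264-175168804, with the strongest folds of 6.50 and 6.18 in WT. V2084D replicate 2 had a fold of 4.93 there, and the other 3 mutant lists had no peak in the whole 116 kb window. At ATF7 the start had folds of 7.62 and 6.52 in WT and of 3.50 in V2084D replicate 2, and no peak in the other 3 mutant lists. Both genes thus had the same lists with and without a peak at this end. By rank, the strongest WT peaks of any member's window lay elsewhere in that of ATF7, at chr12:53500643-53501634, over the overlapping ends of TARBP2 and MAP3K12, a kinase gene of the JNK pathway. Their folds were 11.2 and 9.41 in the WT lists, 5.38 and 5.19 in the V2084D lists, and 5.08 and 4.49 in the knockdown lists. The WT peaks ranked 378 and 347 in their lists. This site was the reason that ATF7 counted as having a peak within 10 kb in all 6 lists.

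ATF3, a stress-induced gene whose product often represses, had its listed peaks away from the 2 starts of its matched RefSeq entries. Any other start within the gene was not examined, so a peak at such a start would not be seen as one here. A site 6228 to 6650 bp upstream of the first start, chr1:212558440-212559465, had folds of 4.58 and 4.95 in WT and of 4.30 and 3.90 with STUB1 knockdown, and no peak in either V2084D list. It was the only member site with a peak in both WT lists, in neither V2084D list and in both knockdown lists, 1 of 37 member sites. Over the genome 1.04% of 37969 sites joined in the same way had that pattern. A second site within the gene, chr1:212607992-212609699, lay upstream of the second matched start at 212615018. Whether this site covers an unmatched ATF3 start was not examined, so it cannot be called a site away from ATF3 promoters. A further WT replicate 1 peak near the 3′ end, 914 bp before it, was the sole ATF3 peak at an annotated end. The site within the gene was listed in both WT lists, in V2084D replicate 2 and in both knockdown lists, with best folds of 4.06 and 3.83, 3.30, and 4.67 and 3.90. V2084D replicate 1 had a peak next to it, at chr1:212607179-212607592, with a fold of 4.92, that did not overlap it. Within the gene, therefore, both V2084D lists had a peak close to this site, whereas the upstream site had none.

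**Figure D1:**
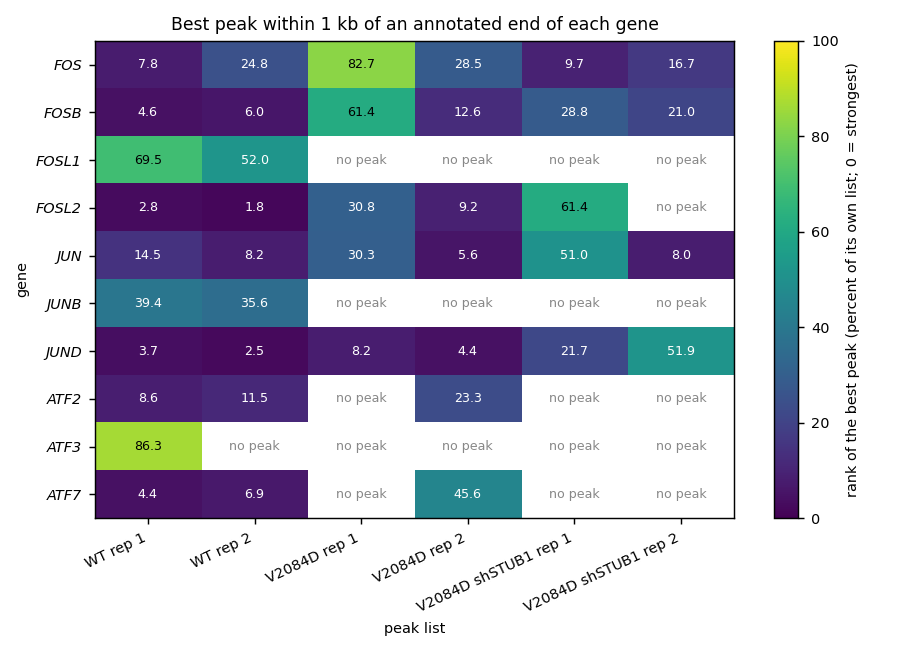
Rank of the best peak within 1 kb of an annotated end of each gene (rows) in each library's list (columns), as a percent of that list, with 0 the strongest. The lists differ in length, so percents of different columns are not on 1 scale. FOS, FOSB, JUN and JUND have a value in all 6 columns, from 2.48% for JUND in WT replicate 2 to 82.7% for FOS in V2084D replicate 1, and JUNB, FOSL1 and ATF3 have values in WT columns alone.

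Counted over the family, a peak within 10 kb was listed at 10 and 10 members in WT, where 71.9% and 71.2% of all protein-coding genes had one. In V2084D 8 and 9 members had one, against 28.8% and 46% of all genes, and with STUB1 knockdown 9 and 7 members, against 40% and 31.4%. All 6 lists had one at 7 members, FOS, FOSB, JUN, JUNB, JUND, ATF3 and ATF7, against 16.4% of all genes. A gene with a peak in both WT lists and no mutant list was not among the members, and 12.8% of all genes were of that kind. The windows of ATF2, ATF3 and ATF7 are long, from 75.4 to 139 kb, and hold more room for a peak than those of JUN or FOS.

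Within 1 kb of an annotated end, the count was 10 and 9 members in WT, against 58.1% and 56.7% of all genes. It was 5 and 7 in V2084D, against 19.2% and 31.9%, and 5 and 4 with STUB1 knockdown, against 27.6% and 20.5%. FOS, FOSB, JUN and JUND had such a peak in all 6 lists, against 9.14% of all genes. JUNB and FOSL1, 2 members, had one in both WT lists and no mutant list, against 13.2% of all genes. The members' shares thus stood above those of all genes in each list, and no test of this difference was made, since the members were chosen with results known.

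**Figure D2:**
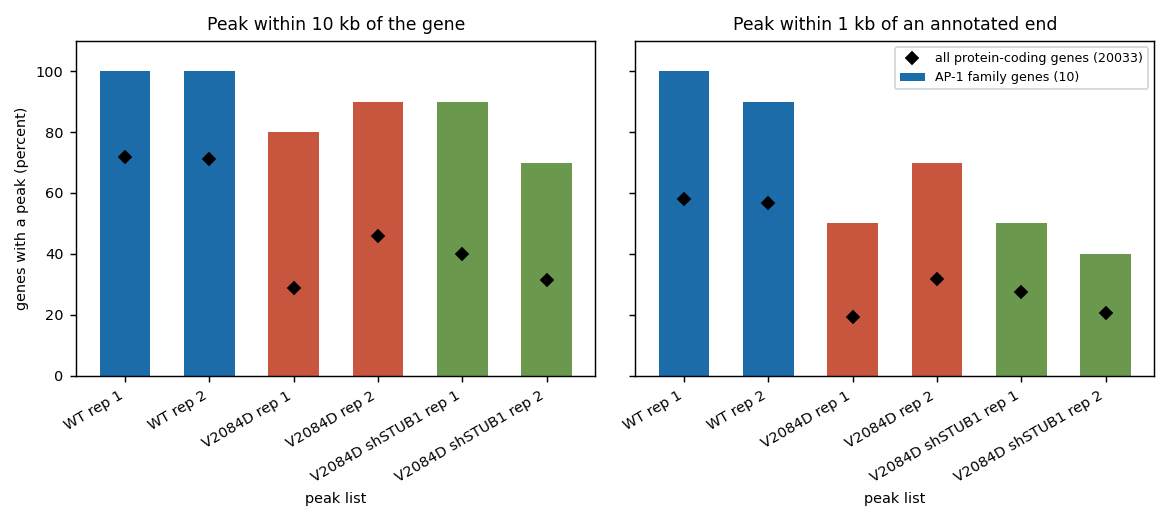
Percent of the 10 AP-1 family genes (bars) and of all 20033 protein-coding genes (diamonds) with a listed peak within 10 kb of the gene (left) or within 1 kb of an annotated end (right), by library. The bars stand above the diamonds in all 6 lists, and bars and diamonds are both lower in the 4 mutant lists than in WT.

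The comparison of V2084D with WT asks whether the mutation alters ARID1A occupancy. At an annotated end, 6 ± 1.41 members (SD, n = 2) had a peak in V2084D and 9.5 ± 0.707 (SD, n = 2) in WT, a difference of -3.5 members. Over the 4 pairs of libraries it ran from -5 to -2, so the groups did not overlap. The two-sided exact permutation p was 0.333, with 0.5 after Benjamini-Hochberg adjustment over the 3 group pairs, and 0.333 is the smallest that 2 libraries against 2 can give. When each list was reduced to its 6000 strongest peaks, WT had 7 and 6 members and V2084D 5 and 7, and the difference was -0.5. In the lists of equal length, 24.1% and 24.1% of all genes had such a peak in WT and 19.2% and 19.7% in V2084D. For a peak within 10 kb, 8.5 ± 0.707 members (SD, n = 2) in V2084D against 10 ± 0 (SD, n = 2) in WT gave -1.5, with the same exact permutation p of 0.333, and -0.5 at equal length, where 33.4% and 33.2% of all genes had one in WT and 28.8% and 29.4% in V2084D.

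At equal length FOSB, JUN and JUND had a peak at an end in all 6 lists, against 4.76% of all genes. FOS had one in 5, its WT replicate 2 peak being below the strongest 6000. FOSL2 had one in 5 as before, and ATF2 and ATF7 in the same 3 lists as before. The WT end peaks of JUNB, FOSL1 and ATF3 were all below the strongest 6000 of their own lists. At equal length these genes thus had no end peak in any list, and WT and mutant lists could not be told apart there.

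Setting the knockdown lists beside those of V2084D alone asks what lowering STUB1 does to the places bound by the mutant. At an annotated end 4.5 ± 0.707 members (SD, n = 2) had a peak with knockdown, a difference of -1.5 from V2084D (library pairs -3 to 0, exact permutation p = 0.667). The groups overlapped: the V2084D lists, with 5 and 7 members, differed by more than the group means did. ATF2 and ATF7 were present in V2084D replicate 2 alone of the 4 mutant lists, and FOSL2 was absent from knockdown replicate 2. Within 10 kb the counts were 8 ± 1.41 (SD, n = 2) and 8.5 ± 0.707 (SD, n = 2), a difference of -0.5 (exact permutation p = 1). When −log10 q had to reach 5, these differences turned to 0.5 and 1.5. No member had a peak at an end in both WT lists, in no V2084D list and in both knockdown lists, a pattern of 1.29% of all genes. The upstream ATF3 site was the sole site near a member that showed it.

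The knockdown lists were also set against WT. The difference at annotated ends was -5 members (library pairs -6 to -4, exact permutation p = 0.333, adjusted p = 0.5), and -2 at equal length, where 20.4% and 18.8% of all genes had such a peak in the knockdown lists. Within 10 kb it was -2 (library pairs -3 to -1, exact permutation p = 0.333, adjusted p = 0.5), and -1 at equal length, against 30.3% and 29.1% of all genes. FOS, FOSB, JUN and JUND were the 4 members with an end peak in both knockdown lists, against 15.6% of all genes.

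As a share of the whole list, the member windows held 30 and 37 WT peaks, or 0.109% and 0.140%. They held 12 and 16 V2084D peaks, or 0.2% and 0.129%, and 16 and 10 with STUB1 knockdown, or 0.180% and 0.150%. V2084D exceeded WT by 0.0405 percentage points (library pairs -0.0103 to 0.0913, exact permutation p = 0.667), so these groups overlapped. The knockdown lists exceeded WT by 0.0407 points (library pairs 0.0105 to 0.0709, exact permutation p = 0.333, adjusted p = 1), a difference of 0 at equal length. V2084D with and without knockdown differed by 0.000289 points (exact permutation p = 1).

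Peaks joined across the lists by an overlap of at least 1 bp gave 37 sites in the 10 windows. A peak in all 6 lists was found at 5 of them, against 5.48% of the 37969 sites of the genome: those at the starts of FOS, FOSB, JUN and JUND and the one over the overlapping ends of TARBP2 and MAP3K12. A peak in both WT lists and no mutant list was found at 7, against 14.6%: 3 near FOSL1, 3 near JUNB and 1 downstream of ATF7. With the upstream ATF3 site, 8 were in both WT lists and no V2084D list, against 19.5%. A single WT list and no other held 13 of the 37. The 2 sites without a WT peak were the one within FIBP, near CTSW, and the V2084D replicate 1 peak within ATF3. Shares over the genome were not counted for sites of a single WT list or for sites without a WT peak, and the WT lists were the longest. Joined by summits within 200 bp, a single site had a peak in all 6 lists, and with −log10 q of at least 5 none (0) did. In the lists of equal length, 0 sites had a peak in both WT lists and no V2084D list. Sites of the whole genome were not counted under these alternative settings.

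The widest peaks near the members were in the WT lists, but most WT peaks were under 1 kb. Of the WT peaks near the members, 10 of 30 and 9 of 37 were at least 1 kb wide, against 15.9% and 13.8% of the whole lists. In V2084D these were 0 of 12 and 3 of 16, against 2.7% and 4.74%, and with STUB1 knockdown 1 of 16 and 0 of 10, against 5.31% and 3.33%. The median width of member peaks at annotated ends was 1168 and 689 bp in the WT lists and 344 and 707.5 bp in the V2084D lists, so these groups overlapped, and it was 389 and 431 bp in the knockdown lists. The widest peaks were those of JUND (3258 bp) and JUN (3129 bp) in WT replicate 1 and of FOSL2 (2891 bp) in WT replicate 2. The peaks over the FOS start were 1960 and 1072 bp wide in WT, 344 and 958 bp in V2084D, and 389 and 350 bp with knockdown. At this start, then, each WT peak was wider than each mutant peak. The WT lists were also the longest, and the part of read depth in these widths was not tested.

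**Figure D3:**
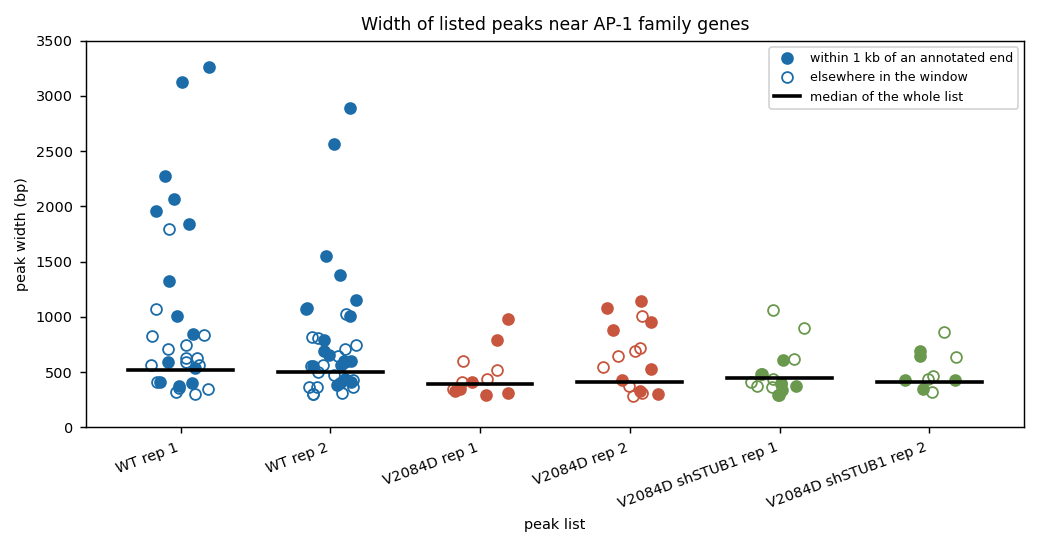
Width in bp of each listed peak near the 10 genes, by library; filled points lie within 1 kb of an annotated end, open points elsewhere in the window, and the black line is the median of the whole list. No mutant peak is wider than 1142 bp, and the highest WT points are the starts of JUND, JUN and FOSL2.

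Other genes of the AP-1 network were counted from fixed lists. Of 21 other basic leucine zipper genes that partner or resemble AP-1, 19 had a peak within 10 kb in both WT lists, against 66.7% of all genes, and 5 had one in all 6, against 16.4%: NRL, ATF4, NFE2L2, MAFF and MAFG. The 3 genes ATF1, CREB3 and MAF had one in both WT lists and no mutant list, against 12.8% of all genes. At ATF4, the effector of the integrated stress response, the best folds were 6.65 and 7.44 in the WT lists, 3.62 and 6.02 in the V2084D lists, and 6.84 and 7.26 in the knockdown lists. Of 16 kinases and factors that act upstream of FOS and JUN, 15 had a peak in both WT lists, against 66.7% of all genes, and 5 had one in all 6, against 16.4%: ELK4, MEF2D, MAP2K1, SRF and MAP2K2. ELK4 and SRF together bind the serum response element of FOS. The best ELK4 peaks had folds of 11.5 and 11.3 in the WT lists, 7.38 and 3.74 in the V2084D lists, and 5.44 and 5.57 in the knockdown lists. MAP2K4, a kinase that activates JNK, had no peak in any list and was picked out after its value was seen.

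The textbook targets of AP-1 were counted in the same way. Both WT lists had a peak at 10 of 16, against 66.7% of all genes, and all 6 lists had one at 4, against 16.4%: VIM, MMP9, CCND1 and GADD45A. MT2A, the metallothionein gene in whose promoter the AP-1 element is known, PLAU and TIMP1 were the 3 with one in both WT lists and no mutant list, against 12.8% of all genes. MMP1, MMP3, MMP10, CXCL8 and CD44 had none in any list, and were picked out after their values were seen. At VIM, the gene of the filament protein vimentin, the folds were 9.65 and 8.82 in the WT lists, 4.60 and 4.85 in the V2084D lists, and 4.70 and 5.34 in the knockdown lists. Distal elements beyond 10 kb were not counted for any of these genes.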

How the data were processed

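Flag ChIP-seq was deposited as 1 peak list per ChIP library, 6 in all, and 2 WT input libraries were not analysed here. The submitters' processing notes name MACS2, Bowtie2, Trimmomatic, Picard, SAMtools, deepTools and bedtools, and the build hg38. Versions, settings and peak-calling controls were not given in the sources used here. The deposited lists give each peak's fold enrichment (a ratio), its −log10 p and −log10 q and its summit, which were used only within a list. Peak names show that the authors called peaks per library.

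A gene counted when a peak overlapped it or its 10 kb flanks by at least 1 bp, or lay within 1 kb of an annotated end. The count at ends was added after the data were seen. Counts and shares were compared by an exact permutation test, two-sided, over libraries, with Benjamini-Hochberg adjustment over 3 group pairs. Positions in exons, introns or UTRs were not used here. Promoter sequences and starts are from RefSeq (GRCh38.p14). Scripts (Python 3.11.15, numpy 2.4.6, pandas 2.3.3) were tested on simulated data. The members and lists were chosen with earlier results of these data known. All members were named; of other lists, up to 6 genes with a peak in all 6 lists and up to 6 with one in both WT lists alone, by the worse WT rank. Alternatives were windows of 2 and 50 kb, summits inside the window, −log10 q of at least 5, fold of at least 5, equal list length, each library left out and a replicate block.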

Additional observations from a re-analysis of the deposited data

How the results depend on the processing

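The differences from WT in members with a peak, within 10 kb or at an end, kept their direction in all alternatives but 1: with a window of 50 kb V2084D and WT did not differ (0). The difference between knockdown and V2084D turned to 1.5 (10 kb) and 0.5 (ends) with −log10 q of at least 5. As a share of the list it turned to -0.0167 points with a window of 2 kb, -0.0450 with fold of at least 5 and -0.00833 at equal length, and knockdown minus WT became 0 at equal length.

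With a library left out, members within 10 kb differed by -2 to -1 (V2084D minus WT), by -1.5 to 0.5 (knockdown minus V2084D; 0.5 without knockdown replicate 2, and 0 without V2084D replicate 2) and by -3 to -1 (knockdown minus WT). At ends the ranges were -4.5 to -2.5, -2.5 to -0.5 and -5.5 to -4.5. For shares they were 0.00505 to 0.0759, -0.0351 to 0.0357 and 0.0253 to 0.0561 points. The share of knockdown minus V2084D was -0.0145 without knockdown replicate 1 and -0.0351 without V2084D replicate 2.

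Sites in all 6 lists numbered 10 with a window of 50 kb, 0 with −log10 q of at least 5, 0 with fold of at least 5, and 1 by summits within 200 bp, and 5 to 6 with a library left out. Sites in both WT lists and no V2084D list, 8 as reported, numbered 4 (2 kb), 20 (50 kb), 5 (−log10 q), 3 (fold) and 0 (equal length), and 8 to 20 with a library left out: 20 and 16 without WT replicate 1 or 2 and 14 without V2084D replicate 2. Those in no mutant list, 7 as reported, numbered 4 (2 kb), 4 (−log10 q), 3 (fold) and 0 (equal length), and 7 to 19: 19 and 14 without WT replicate 1 or 2. In these last settings 1 WT list stood for its group. Sites of the whole genome were not counted under any of these alternatives.

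With the replicate number as a block the differences were the same by construction (-1.5, -0.5 and -2 members within 10 kb, -3.5, -1.5 and -5 at ends, 0.0405, 0.000289 and 0.0407 points), and the paired exact p was 0.5 or 1. The replicate difference in peaks per member correlated between groups at -0.47, 0.38 and 0.27 over 10 genes, and the labels do not say that a number marks a shared batch. Depth is unknown and limits every absent peak.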

Other observations

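Of 16 other immediate-early genes, which serum and stress induce together with FOS and JUN, both WT lists had a peak within 10 kb at 15, against 66.7% of all genes, and all 6 lists had one at 6, against 16.4%: MCL1, ZFP36, CCN1, EGR1, IER5 and SGK1. At MCL1, which encodes an inhibitor of apoptosis, the best folds were 10.4 and 9.56 in the WT lists, 7.94 and 8.87 in the V2084D lists, and 5.90 and 7.76 in the knockdown lists. EGR1, a zinc finger gene under the same serum response elements as FOS, had 6.81 and 4.92, 4.34 and 4.46, and 4.40 and 3.73. IER3 had no peak in any list and was picked out after its value was seen. Of 8 fibroblast and endothelial markers, COL1A1 was the one with a peak in all 6 lists, against 16.4% of all genes. A peak in both WT lists was found at 4, against 66.7%. Both marker shares, 12.5% and 50%, were below those of all genes.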
